A study of Mus musculus with 21 samples.

Results

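The catalytic head of the mitochondrial ATP synthase, called F1, is built from 5 kinds of subunit, and the genes of all 5 were followed here in the hippocampus of adult mice: Atp5a1 (alpha), Atp5b (beta), Atp5c1 (gamma), Atp5d (delta) and Atp5e (epsilon). They were chosen by name as the genes of these subunits, all 5 were found among the 55487 genes of the counts table, and all 5 were among the 18146 genes with enough counts to be tested. Poly-A RNA was sequenced with 1 library per mouse from 9 male mice after maternal separation (MS) and 12 male mice after standard rearing (SR). All were wild type C57BL/6 mice of 10 weeks. In MS, whole nests were taken from the dam for 4 hr a day from postnatal day 10 to 17 and most nesting material was removed from the home cage, and SR nests stayed with the dam. Nests, not single pups, were assigned to a condition, and the labels do not name the nest of a mouse. The tests below take each mouse as a separate sample, so their p-values measure the spread between mice and not that between nests. The question was whether separation early in life was followed by another level of the F1 transcripts in the adult hippocampus.

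ATP synthase makes most of the ATP of a neuron. Protons flow back into the mitochondrial matrix through a membrane part, F0, and turn a ring of c subunits. The central stalk, made of gamma, delta and epsilon, turns with the ring inside the head, where copies of alpha and beta alternate around gamma, and each turn drives beta to bind ADP and phosphate and to release ATP. Alpha also binds nucleotide but does not catalyse. Delta and epsilon form the foot where gamma meets the c ring, and epsilon is the smallest subunit of the head. A peripheral stalk holds the head still. The 5 F1 genes are in the nucleus, and 2 subunits of the membrane part are encoded by the mitochondrial genome.

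The 5 genes lie on 3 chromosomes of GRCm38 (GENCODE M21 annotation). Atp5b (ENSMUSG00000025393) lies at chr10:128083273-128090391 on the plus strand with 10 exons, and Atp5d (ENSMUSG00000003072) at chr10:80138632-80145818 on the plus strand with 4 exons. Atp5c1 (ENSMUSG00000025781) lies at chr2:10056016-10080510 and Atp5e (ENSMUSG00000016252) at chr2:174461072-174464105, both on the minus strand, with 10 and 3 exons. Atp5a1 (ENSMUSG00000025428) has 12 exons. Their transcripts differ widely in size, from 2471 bases for Atp5a1 and 1916 for Atp5b to 1166 for Atp5c1, 931 for Atp5d and 421 for Atp5e. The coding sequence of Atp5e, the gene with the largest difference between MS and SR below, is short enough to be read whole, with the start and stop codons in capitals. The stretch of Atp5b shown after it encodes the phosphate-binding loop, where ATP is made, with the 8 codons of the loop in capitals (bases 616 to 639 of the coding sequence).
Atp5e coding sequence: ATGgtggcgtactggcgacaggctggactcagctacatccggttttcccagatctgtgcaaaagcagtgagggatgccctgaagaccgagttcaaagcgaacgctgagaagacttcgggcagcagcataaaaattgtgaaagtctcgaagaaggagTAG
Atp5b phosphate-binding loop: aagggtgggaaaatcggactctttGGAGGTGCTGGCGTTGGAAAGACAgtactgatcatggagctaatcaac

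Promoter windows from RefSeq were matched for 4 of the 5 genes, and Atp5a1 had no window. They are shown for the genes of the highest and the lowest level per kilobase of principal transcript, Atp5b (chr10:128083057-128083272, plus strand) and Atp5e (chr2:174464106-174464351, minus strand), both of build GRCm38.p6. Capitals mark the CCAAT box (CCAAT) and the GC box (GGGCGG), searched on both strands, so that a match on the other strand reads ATTGG or CCGCCC.
Atp5b promoter: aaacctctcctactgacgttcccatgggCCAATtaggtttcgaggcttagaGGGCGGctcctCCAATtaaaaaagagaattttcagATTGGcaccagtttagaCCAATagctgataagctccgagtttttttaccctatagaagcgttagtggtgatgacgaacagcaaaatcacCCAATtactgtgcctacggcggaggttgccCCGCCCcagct
Atp5e promoter: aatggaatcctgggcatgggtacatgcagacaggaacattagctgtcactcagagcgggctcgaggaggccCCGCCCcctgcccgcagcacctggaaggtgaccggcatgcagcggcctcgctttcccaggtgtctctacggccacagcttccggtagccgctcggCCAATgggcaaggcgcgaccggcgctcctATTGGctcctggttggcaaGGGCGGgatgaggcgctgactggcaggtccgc
The Atp5b window held 5 CCAAT boxes and 2 GC boxes, and the Atp5e window held 2 of each. At least 1 CCAAT box was found in 37.4% of all 32851 windows, at least 2 in 11.7% and at least 5 in 0.271%, and at least 1 GC box in 35.7%. Neither Atp5b nor Atp5e had a match to the motif of NRF-1, which 4.6% of all windows held, or to the ETS motif (CCGGAAGT), which 3.89% held. Of the windows not printed, 1 Atp5c1 window held 1 match to the NRF-1 motif and the other none. The windows of Atp5d held no match to any of these motifs. These motifs do not overlap each other in the printed windows, and a match describes letters, not binding.

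Library totals ran from 17276810 to 30449055 counts over the 21 mice. Mice are called MS1 to MS9 and SR1 to SR12. MS5 lay apart on the first principal component, at -27.1 against -11.9 to 12.2 for the others, and was left out of the main comparison, as the study's methods left out 1 library, which they do not name and which may be another, so that 8 MS mice were compared with 12 SR mice. Genes of dentate granule cells, the principal cells of the dentate gyrus, summed to 23.0 CPM in MS5 against 166 to 382 in the others, and striatal genes to 1389 against 66.4 to 485, so the tissue in MS5 was not like the rest (CPM, counts of a gene scaled to the normalised total of its library). Neuronal genes (4 listed) summed to 4097 to 5019 CPM in MS and 4657 to 5114 in SR. All 4 were lower in MS, 2 of them at an unadjusted p under 0.05. Choroid plexus genes (5 listed) summed to 51.6 to 4141 CPM in MS and 27.6 to 4465 in SR, with a median log2 difference of 0.92. Striatal genes (5 listed) summed to 66.4 to 485 CPM in MS and 66.9 to 296 in SR, with a median log2 difference of 0.48. All 5 genes of either list were higher in MS, none at an unadjusted p under 0.05. Ependymal genes (3 listed) had a median log2 difference of 0.60, with 2 of 3 higher at an unadjusted p under 0.05. No gene of these lists passed the adjusted threshold, and none was at 0 in all mice. The part of these cell types in the F1 values was not tested beyond the choroid plexus level, given below. In whole tissue, fewer cells of a type and less RNA per cell cannot be told apart.

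All 5 F1 transcripts were measured in each mouse, and Atp5b and Atp5a1 were among the most abundant of the hippocampus, at ranks 89 and 134 of 18146 genes by CPM. Per kilobase of transcript, the SR level was 472 ± 12.0 CPM (SD, n = 12) for Atp5b and 288 ± 9.86 for Atp5a1. Atp5d followed with 112 ± 4.24 CPM per kilobase and Atp5c1 with 96.9 ± 2.83, and Atp5e was lowest with 46.8 ± 4.62. In SR, the ranges of neighbouring genes in this order did not overlap: Atp5b lay at 456 to 491, Atp5a1 at 262 to 297, Atp5d at 104 to 118, Atp5c1 at 92.3 to 101.9 and Atp5e at 38.3 to 55.2. The order rests on the transcript length. With the length of all annotated exons joined, Atp5a1 (227 CPM per kilobase) stood above Atp5b (214), Atp5c1 (59.2) above Atp5d (54.1), and Atp5e was again lowest (11.2).

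Atp5e, the epsilon subunit of the rotor's foot, had the largest difference between the groups. Its lowest, median and highest values were 13.0, 27.4 and 32.3 CPM in the 8 MS mice and 16.1, 19.5 and 23.2 CPM in the 12 SR mice. Of the MS mice, 6 lay above every SR mouse, MS8 lay within the SR range at 21.5, and MS9 lay below every SR mouse. The means were 26.2 ± 6.41 CPM in MS and 19.7 ± 1.95 in SR (SD), a log2 fold change of 0.42 (SE 0.116, 95% interval 0.17 to 0.66), or 1.33-fold. The p was 0.00173 and the edgeR adjusted p 0.181, so the difference did not pass the threshold of 0.05. The mean count was 484, from 238 to 711, so counting error alone was 4.54% of a value, below the spread of 9.88% among SR mice.

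Atp5d, the delta subunit of the same foot, had the next largest difference. Its lowest, median and highest values were 86.1, 121 and 126 CPM in MS and 97.2, 106 and 110 CPM in SR. Here 7 of 8 MS mice lay above every SR mouse and the eighth, MS9, lay below every SR mouse. The means were 116 ± 13.0 CPM in MS and 104 ± 3.95 in SR, a log2 fold change of 0.15 (SE 0.0503, 95% interval 0.04 to 0.25), with p = 0.00688 and an edgeR adjusted p of 0.250.

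The subunits of the catalytic ring differed less. Atp5a1 lay at 695, 746 and 808 CPM (lowest, median, highest) in MS and at 648, 721 and 733 in SR, and 6 of 8 MS mice were above the SR range. Its log2 fold change was 0.06 (SE 0.0323, 95% interval -0.0028 to 0.13, edgeR adjusted p = 0.457). Atp5b lay at 899, 944 and 1023 CPM in MS and at 874, 906 and 941 in SR, with 5 of 8 MS mice above the SR range. Its log2 fold change was 0.07 (SE 0.0300, 95% interval 0.0040 to 0.13, edgeR adjusted p = 0.400). The groups overlapped for both genes, and the highest mouse was MS7 each time. With MS5 included, the log2 fold change of Atp5a1 was 0.037 (edgeR adjusted p = 0.732) and that of Atp5b 0.048 (edgeR adjusted p = 0.583).

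Atp5c1, the gamma shaft, showed next to no difference in the mean. It lay at 105, 112 and 135 CPM in MS and at 108, 113 and 119 in SR, and only MS7 lay above the SR range and only MS4 below it. The log2 fold change was 0.02 (SE 0.0370, edgeR adjusted p = 0.894), and its 95% interval of -0.06 to 0.10 leaves out a difference as large as the fitted one of Atp5d. Without MS7 the fitted value was -0.019.

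**Figure D1:**
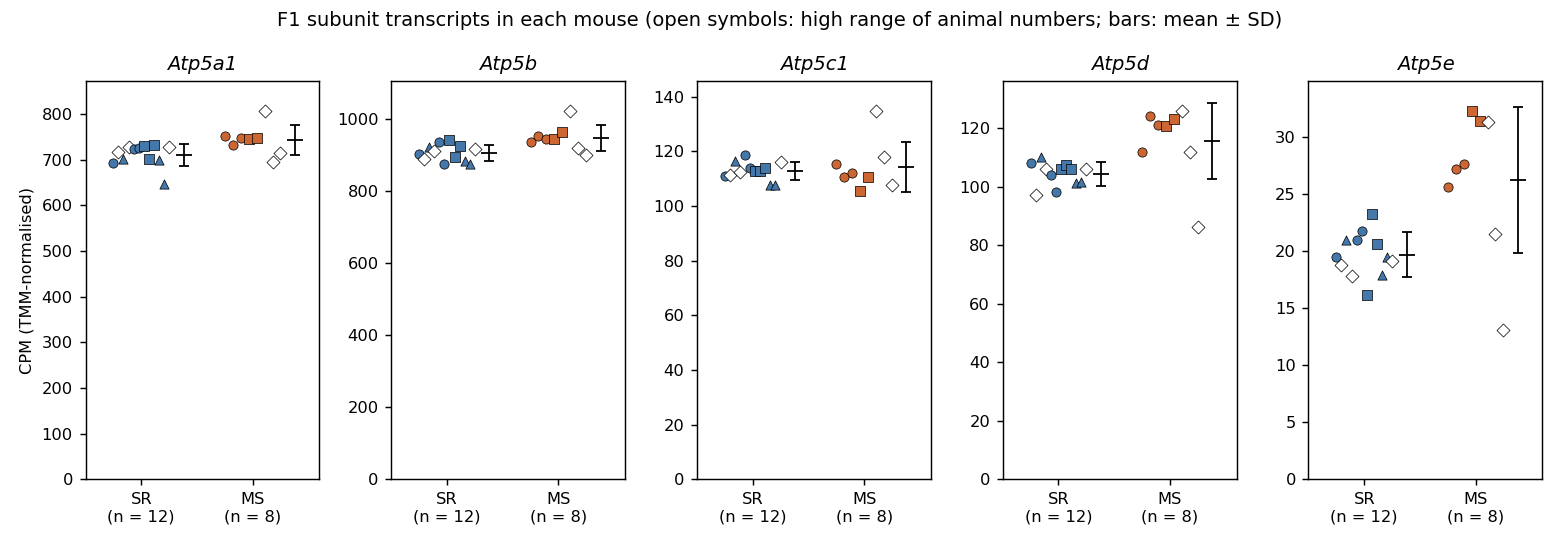
CPM of the 5 F1 genes in each mouse, SR in blue (n = 12) and MS in orange (n = 8), with the mean ± SD as bars beside the points. Symbols mark sets of consecutive animal numbers and open symbols the high range of numbers. For Atp5d, 7 of 8 MS mice sit above the SR range and MS9 sits at 86.1, and for Atp5e 6 of 8 sit above it and MS9 sits at 13.0.

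All 5 genes had a fold change above 0, as did 50.3% of all genes. None of the 5 passed an adjusted p of 0.05, where 0.011% of all genes (2 of 18146, both higher in MS) did, and 3 of the 5 (Atp5b, Atp5d and Atp5e) were higher in MS at an unadjusted p under 0.05, where 6.62% of all genes were. DESeq2 called Atp5e (log2 fold change 0.41, adjusted p = 0.0440) and none of the other 4, where it called 0.495% of the genes with an adjusted p as higher in MS.

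Each mouse was left out in turn, and leaving out MS9 changed the calls of Atp5d and Atp5e. MS9 is singled out for its low values in these same genes, so the p-values without it are no separate support. Without MS9 the log2 fold change of Atp5e was 0.51 (SE 0.0742, edgeR adjusted p = 0.00469) and that of Atp5d 0.20 (SE 0.0328, edgeR adjusted p = 0.00667). The share of all genes called higher in MS was then 0.525% (96 of 18280). Atp5a1, Atp5b and Atp5c1 were not called without MS9. The libraries of MS7 and MS9 also stood at the ends of another measure, the correlation of a library's gene levels with transcript length (each gene relative to its mean over mice). It was -0.202 in MS7, -0.093 to 0.054 in the other MS mice but MS9, 0.152 in MS9, and -0.065 to 0.070 in SR. With this measure as a term, the log2 fold change of Atp5e was 0.27 (SE 0.0879, edgeR adjusted p = 0.247) and that of Atp5d 0.10 (SE 0.0426, edgeR adjusted p = 0.402). With both MS7 and MS9 left out, an alternative chosen after seeing the data, it was 0.49 (edgeR adjusted p = 0.0112) for Atp5e and 0.19 (edgeR adjusted p = 0.0156) for Atp5d. The share of all genes called higher in MS was then 0.359% (66 of 18384). With the choroid plexus level of each mouse as a term, the log2 fold change of Atp5e was 0.35 (edgeR adjusted p = 0.434).

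**Figure D2:**
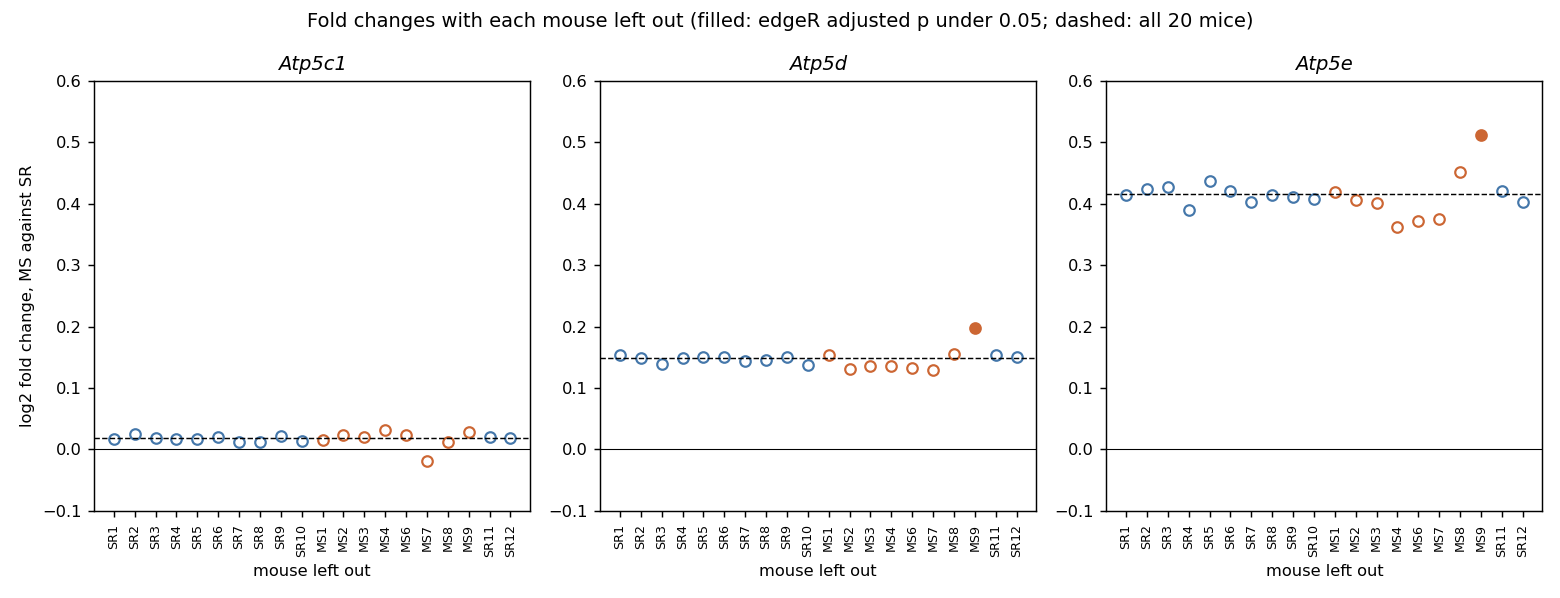
Log2 fold change of Atp5c1, Atp5d and Atp5e (MS against SR, edgeR) with each mouse left out in turn, blue for an SR and orange for an MS mouse, the dashed line being the value with all 20 mice. Filled points, at an adjusted p under 0.05, appear only without MS9, at 0.20 for Atp5d and 0.51 for Atp5e, and Atp5c1 falls below 0 only without MS7.

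The coefficient of variation was larger over the 8 MS mice than over the 12 SR mice in all 5 genes, as in 66.8% of all genes, and single mice carried much of it. The coefficient of variation was 24.5% in MS against 9.88% in SR for Atp5e, 11.3% against 3.79% for Atp5d and 8.04% against 2.92% for Atp5c1. It was 4.39% against 3.43% for Atp5a1 and 3.82% against 2.54% for Atp5b. Without MS9 the MS value was 13.7% for Atp5e and 4.74% for Atp5d, and without MS7 it was 3.83% for Atp5c1, 2.85% for Atp5a1 and 2.28% for Atp5b, the last 2 below SR. In the low range of animal numbers, described next, Atp5a1 varied by 0.946% in 5 MS mice against 3.80% in 9 SR mice, Atp5b by 1.07% against 2.86% and Atp5e by 10.0% against 10.5%, while Atp5c1 varied by 3.30% against 3.23% and Atp5d by 3.99% against 3.59%.

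The mice came in sets of 3 consecutive animal numbers, each of 1 condition, which may or may not be litters. Among the MS sets, Atp5e averaged 26.8 CPM in MS1 to MS3, 31.8 in MS4 and MS6, and 21.9 in MS7 to MS9, the last set spanning 13.0 to 31.3. The SR sets averaged 18.6 to 20.7 CPM. Atp5d averaged 119, 122 and 108 CPM in the MS sets and 103 to 107 in the SR sets. No F1 gene was called among sets within MS (edgeR adjusted p = 0.479 for Atp5e and 0.528 for Atp5c1, with 0 of 18146 genes called and 11.4% at an unadjusted p under 0.05) or within SR (edgeR adjusted p of at least 0.964, with 0.0165% of genes called). MS7 to MS9 were also the MS mice of a separate, higher range of animal numbers, with SR9, SR10 and SR12. In the low range, 5 MS mice had 28.8 ± 2.89 CPM of Atp5e and 9 SR mice 20.1 ± 2.11, and Atp5d was at 120 ± 4.80 and 105 ± 3.76 CPM. Within that range alone both were called (Atp5e log2 fold change 0.52, edgeR adjusted p = 0.00978; Atp5d 0.20, edgeR adjusted p = 0.0183), where 0.864% of genes were called higher. The low range leaves out MS9, singled out above for its low values in both genes, so these calls are no separate support. In the high range, 3 MS mice had 21.9 ± 9.12 CPM of Atp5e and 3 SR mice 18.6 ± 0.687. Atp5d was at 108 ± 20.2 CPM in MS and 103 ± 5.13 in SR of that range. There the log2 fold change was 0.25 for Atp5e (SE 0.275, edgeR adjusted p = 0.940) and 0.07 for Atp5d (SE 0.124, edgeR adjusted p = 0.952), and neither was called. The difference between the ranges was itself not called (Atp5e -0.28, SE 0.233, edgeR adjusted p = 0.768, with 0 of 18146 genes called and 8.67% at an unadjusted p under 0.05).

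Log2 ratios between members, taken within each mouse, do not depend on how libraries are scaled. The part of the transcript length measure in these ratios was not tested. Atp5e (421 bases) and Atp5d (931) have shorter transcripts than the other members. The ratio of Atp5e to each of the other 4 was higher in MS, by 0.35 over Atp5c1, 0.31 over Atp5a1, 0.30 over Atp5b and 0.23 over Atp5d. They had p = 0.0124 to 0.0250 in a two-sided exact permutation test and an adjusted p of 0.0624 over the 10 pairs, so none passed 0.05. The ratio of Atp5d to Atp5c1 was higher by 0.12 (exact permutation p = 0.0351, adjusted p = 0.0701). The ratio of Atp5b to Atp5a1, the pair of the catalytic ring, was 0.35 ± 0.03 in MS and 0.35 ± 0.04 in SR, a difference of 0.0020 (exact permutation p = 0.912). In 6 of 8 MS mice the ratio of Atp5e to Atp5b was above every SR mouse, and in MS9 it was below every one. Without MS9, the 4 Atp5e ratios and the 3 ratios of Atp5d to Atp5a1, Atp5b and Atp5c1 had adjusted exact permutation p-values between 0.000198 and 0.00181. MS9 was singled out for low values in these same ratios, so these p-values are no separate support. With all 21 mice, MS5 included, the 4 Atp5e ratios differed by 0.23 to 0.37 with an adjusted exact permutation p of 0.0344 each. MS5, whose tissue was not like the rest, had the lowest Atp5a1, Atp5b and Atp5c1 of all 21 mice.

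Over the 20 mice, after removing the mean of each condition, Atp5d and Atp5e varied most closely together (Pearson r = 0.84, permutation p = 0.00606, adjusted p = 0.0267 over 10 pairs, and Spearman rho = 0.67, adjusted permutation p = 0.0190). Atp5a1 and Atp5b followed (r = 0.73, adjusted permutation p = 0.00710, rho = 0.65, adjusted permutation p = 0.0145). Atp5b also correlated with Atp5c1 (r = 0.68, adjusted permutation p = 0.0267) and with Atp5d (r = 0.67, adjusted permutation p = 0.0271), and Atp5a1 with Atp5c1 (r = 0.58, adjusted permutation p = 0.0423). By rank, Atp5b with Atp5d (rho = 0.66) passed an adjusted permutation p of 0.05, and Atp5c1 with Atp5b (rho = 0.42) and with Atp5a1 (rho = 0.51) did not. Epsilon and gamma had r = 0.26 (adjusted permutation p = 0.378). Without the 2 mice farthest from the median, none of the 10 pairs passed an adjusted p of 0.05. Atp5d with Atp5e then had r = 0.52 (without SR10 and MS9), Atp5a1 with Atp5b 0.57 (without SR8 and MS7), Atp5b with Atp5c1 0.31 and with Atp5d 0.57 (both without MS7 and MS9), and Atp5a1 with Atp5c1 0.18. These relations thus rest in part on those mice.

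**Figure D3:**
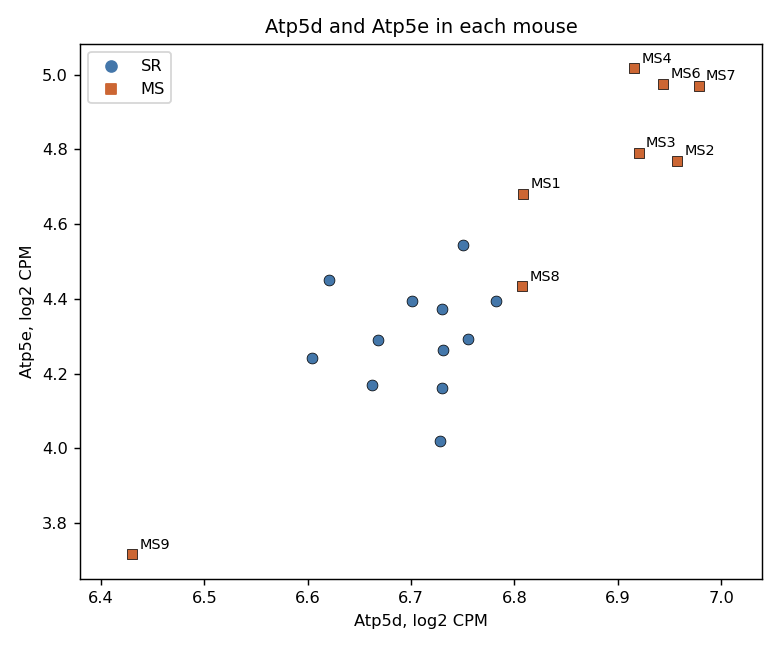
Log2 CPM of Atp5e against that of Atp5d, 1 point per mouse, SR as blue circles (n = 12) and MS as orange squares (n = 8) labelled by mouse. MS9 lies alone at the lower left, MS8 lies at the edge of the SR mice, and the other 6 MS mice lie above all SR mice in both genes.

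The rest of the ATP synthase was described from lists of 32 genes, with the counts read against 6.62% of all genes higher and 4.92% lower at an unadjusted p under 0.05. None of the 32 passed the adjusted threshold. The 12 nuclear genes of the peripheral stalk and membrane part were all higher in MS, 8 of them at an unadjusted p under 0.05, with a median log2 fold change of 0.18 against 0.07 for the 5 F1 genes and 0.00084 for all genes. Atp5l, subunit g of the membrane part, was at 41.5, 52.6 and 58.5 CPM in MS (lowest, median, highest) and 34.5, 41.6 and 49.6 in SR, with overlapping groups and the largest difference (0.30, SE 0.0663, edgeR adjusted p = 0.111). Atp5g2, a gene of the c ring, had the smallest (0.05, edgeR adjusted p = 0.716). The 2 mitochondrially encoded subunits were lower in MS, mt-Atp6, which carries the proton channel, by a log2 fold change of -0.16 (SE 0.0607, edgeR adjusted p = 0.300) and mt-Atp8 by -0.16 (SE 0.121, edgeR adjusted p = 0.663). mt-Atp6 lay at 3861 to 6236 CPM in MS and 5335 to 5987 in SR, with 6 of 8 MS mice below every SR mouse and 1 above. It was called lower in the low range alone (-0.28, edgeR adjusted p = 0.0283, where 0.386% of genes were called lower) and without the set MS7 to MS9 (-0.26, edgeR adjusted p = 0.0126).

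Of the 5 assembly genes, 4 were higher and 2 at an unadjusted p under 0.05. Fmc1 had the largest difference (0.32, SE 0.119, edgeR adjusted p = 0.289) at only 4.43 CPM in MS and 3.55 in SR, and Atpaf1, the chaperone of beta, the lowest value (-0.02, edgeR adjusted p = 0.911). Atpif1, which blocks the enzyme when it runs in reverse, was at -0.04 (edgeR adjusted p = 0.828). All 3 carriers that bring in ADP and phosphate were higher, 2 at an unadjusted p under 0.05, from 0.07 for Slc25a4 (edgeR adjusted p = 0.538) to 0.12 for Slc25a5 (edgeR adjusted p = 0.298). The V1 head of the vacuolar proton pump, a relative of F1 that consumes ATP, had 6 of 9 genes higher and none of those at an unadjusted p under 0.05. Its values ran from -0.12 for Atp6v1g2 (edgeR adjusted p = 0.316, the 1 gene lower at an unadjusted p under 0.05) to 0.11 for Atp6v1g1 (edgeR adjusted p = 0.485), with a median of 0.02. Without MS9, 4 genes of the stalk and membrane part were called beside Atp5d and Atp5e, namely Atp5h (0.24), Atp5g3 (0.21), Atp5l (0.34) and Atp5j2 (0.23), where 0.596% of all genes were called. In the low range alone, where 1.25% of all genes were called, Atp5g1 (0.27), Atp5g3 (0.23), Atp5l (0.38) and mt-Atp6 were called. Without the set MS7 to MS9, where 1.83% of all genes were called, Atp5h (0.21), Atp5j (0.19), Atp5g1 (0.27), Atp5g3 (0.22), Atp5l (0.36) and Atp5j2 (0.25) were called higher and mt-Atp6 and Atp6v1g2 (-0.18) lower. DESeq2 called Atp5l among the 32 (0.30, adjusted p = 0.0155), where it called 0.775% of the genes with an adjusted p.

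**Figure D4:**
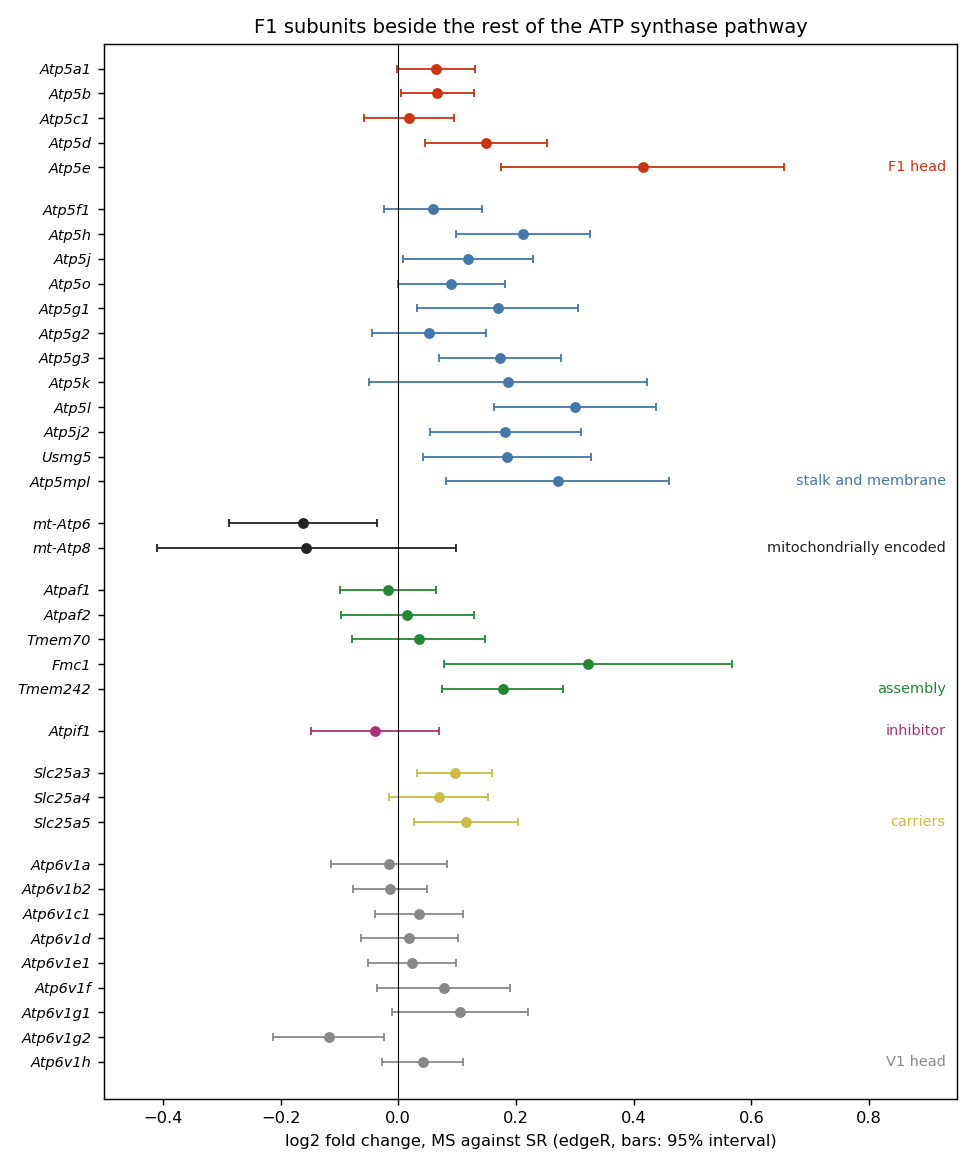
Log2 fold change of MS against SR (edgeR, 8 against 12 mice) with 95% intervals for the 5 F1 genes in red and the 32 other genes by list. Atp5e lies farthest to the right at 0.42, all 12 stalk and membrane genes lie above 0, and mt-Atp6 and mt-Atp8 lie at -0.16.

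The genes outside the head whose log2 CPM followed each member most closely over the 20 mice are given as a description, since all points share their libraries. For Atp5e they were Rpl41 (r = 0.95) and Rps20 (r = 0.93), which encode ribosomal proteins, and the small ubiquitin-like gene Ubl5 (r = 0.94). For Atp5d they were Cox14 (r = 0.94) and Cox6b1 (r = 0.91), of cytochrome c oxidase and its assembly, and Serp2 (r = 0.91). For Atp5b they were Spr (r = 0.89), the mitochondrial phosphate carrier Slc25a3 (r = 0.88) and Rpp25l (r = 0.87), and for Atp5a1 Ube2e3 (r = 0.87), Cnpy2 (r = 0.87) and Imp3 (r = 0.86). For Atp5c1 they were the ribosomal protein genes Rplp0 (r = 0.86) and Rpl3 (r = 0.86) and the ubiquitin gene Ubb (r = 0.86). Without MS9 the r of these 15 genes lay between 0.85 and 0.94. Among the genes following Atp5e, the annotated principal transcripts of median length have 544 (Rpl41), 501 (Ubl5) and 3706 (Rps20) bases. Such an annotated transcript need not be the form expressed, and which form was expressed was not tested. Among those following Atp5d, Cox14, Cox6b1 and Serp2 have 723, 618 and 748. The part of transcript length in these correlations was not tested.

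Atp5d shares 68 exonic bases with Cbarp on the opposite strand (mean count 7483, log2 fold change -0.04), and Atp5a1 shares 129 with Haus1 (mean count 120). Whether strand was used in counting is not given in the sources used here, so reads from the shared bases may lie with either gene. Similar transcripts were found for Atp5b (Gm4707, 90.9% identity over 716 bases, mean count 5.1) and for Atp5c1, where each of 3 pseudogenes had a mean count under 1.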

How the data were processed

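Mice were put into MS or SR as labelled. The authors aligned reads with STAR 2.7.3a to GRCm38 and counted them per Ensembl gene with featureCounts, and deposited raw counts, without normalisation or a filter.

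The library farthest from the median on the first component (DESeq2 1.42.0, variance-stabilised, 500 most variable genes) was left out. Counts were filtered by filterByExpr (minimum count 10), normalised by TMM and tested with the quasi-likelihood test of edgeR 4.0.16 (robust, R 4.3.3) with Benjamini-Hochberg adjustment over 18146 genes and a threshold of 0.05. The SE was the size of the log2 fold change over the square root of F. Log2 CPM had a prior count of 2. Ratios were compared by two-sided exact permutation over all 125970 splits and correlations by 100000 permutations within conditions. Transcript lengths are of the median-length principal transcript. Transcripts were compared with BLAST+ 2.17.0 (at least 100 bases and 85% identity).

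Named were the 5 members, the genes with the highest and lowest log2 fold change of each list and any gene called, and the 3 genes most like each member. Members and lists were chosen with earlier results of these data known. The genes called only under an alternative were named after their values were seen. No pair of libraries of a group was alike within counting noise. Alternatives were DESeq2's Wald test or size factors, no filter, all 21 libraries, and number range, length trend or choroid level as a term. Further ones were sums per set, limma-voom 3.58.1 with the set as a block, each range alone, and each mouse or set left out. Ratios were repeated only with all 21 libraries, the low range alone, each mouse left out and a prior count of 0.5.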

Additional observations from a re-analysis of the deposited data

Results flagged for a closer look

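Among the 8 MS mice, single mice stood apart in 6 of 15 groups of values looked at, where the gap to the nearest mouse over the whole range exceeded Dixon's 95% limit of 0.526 for 8 values. Chance alone gives about 1 in 20 such groups, and the 15 share genes and mice. MS7 was high in Atp5c1 (135 CPM, gap 0.577 of the range). MS9 was low in Atp5d (86.1 CPM, 0.646). MS9 was also low in 4 log2 ratios, at -3.05 for Atp5d over Atp5a1 (0.625), -5.77 for Atp5e over Atp5a1 (0.610), -3.38 for Atp5d over Atp5b (0.723) and -6.10 for Atp5e over Atp5b (0.556). The same 2 mice held the lowest (MS7) and the highest (MS9) correlation of gene level with transcript length, and the part of that measure in these values was tested only as a term in the fit of MS against SR. MS5, the library left out, had the lowest value of all 21 mice in Atp5a1 (618 CPM), Atp5b (840 CPM) and Atp5c1 (99.8 CPM), but 110 CPM of Atp5d and 24.9 CPM of Atp5e.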

How the results depend on the processing

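Of 195 repeats of the 5 fold changes, 180 kept their direction and side of the threshold, 9 newly passed it and 6 changed sign, all 6 in Atp5c1. No F1 gene was called among sets or between ranges with all 21 libraries or by DESeq2. The 4 Atp5e ratios and 3 of Atp5d kept their direction in every setting run for ratios, which did not include the high range alone. DESeq2 called 119 genes (0.775% of 15351), Atp5e (0.41) and 1 other pathway gene among them. The low range alone, which leaves out MS9, gave 230 genes (1.25% of 18395), 4 of the pathway. Atp5d was then at 0.20, Atp5e at 0.52 and Atp5c1 at -0.025. The high range alone gave 0 genes. Without MS7 and MS9, chosen after seeing the data, 72 genes (0.392% of 18384) were called, 4 of the pathway, with Atp5d at 0.19, Atp5e at 0.49 and Atp5c1 at -0.0077. All 21 libraries gave 1 gene, Atp5c1 at -0.0019 and Atp5a1 at 0.037, and no filter 1 gene. The length trend as a term gave 0 genes and Atp5c1 at -0.0098, and the choroid level as a term and counts summed within sets gave 0 genes each (2013, 1473 and 1753 at an unadjusted p under 0.05). With all 21 libraries the ratios that passed were Atp5e over Atp5a1 (0.33), Atp5b (0.32), Atp5c1 (0.37) and Atp5d (0.23), and Atp5d over Atp5c1 (0.14). In the low range alone, 9 ratios passed, namely Atp5e over Atp5a1 (0.44), Atp5b (0.46), Atp5c1 (0.55) and Atp5d (0.32), Atp5d over Atp5a1 (0.12), Atp5b (0.13) and Atp5c1 (0.22), and Atp5c1 over Atp5a1 (-0.10) and Atp5b (-0.091), and Atp5b over Atp5a1 changed sign (-0.011). Correlations no longer called were Atp5d with Atp5b (0.58) over all 21 libraries and, without the 2 farthest mice, Atp5b with Atp5a1 (0.57), Atp5c1 with Atp5a1 (0.18) and with Atp5b (0.31), Atp5d with Atp5b (0.57) and Atp5e with Atp5d (0.52). The cause of these changes was not tested.

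With each mouse or set left out in turn, fold changes ran from -0.027 to 0.044 for Atp5c1, 0.12 to 0.20 for Atp5d and 0.31 to 0.55 for Atp5e, with edgeR adjusted p from 0.00115 to 0.525 for Atp5e. Atp5d and Atp5e passed without MS9 and without the set MS7 to MS9, which holds MS9. Called genes ran from 0 to 340, with 109 without MS8 and 109 without MS9, and called pathway genes from 0 to 8. With each mouse left out, the ratios ran from -0.0056 to 0.0096 for Atp5b over Atp5a1, -0.068 to -0.031 for Atp5c1 over Atp5a1, 0.058 to 0.13 for Atp5d over Atp5a1, 0.26 to 0.44 for Atp5e over Atp5a1, -0.069 to -0.034 for Atp5c1 over Atp5b, 0.060 to 0.12 for Atp5d over Atp5b, 0.25 to 0.43 for Atp5e over Atp5b, 0.098 to 0.17 for Atp5d over Atp5c1, 0.29 to 0.48 for Atp5e over Atp5c1, 0.19 to 0.31 for Atp5e over Atp5d. Those of Atp5e passed without SR5, MS8 and MS9, and that of Atp5b over Atp5a1 changed sign in 6 of 20 cases. No paired analysis was possible because the labels give no replicate numbers that groups share. The counts limit Atp5e most (4.54% counting error).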
